A study of Mus musculus with 8 samples.

Results

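The 9 genes described here encode PD-L1 (Cd274) and other surface or secreted proteins through which an antigen-presenting cell signals to a T cell, or answers it. They are Cd274, Pdcd1lg2, Vsir, Cd80, Cd86, Icosl, Cd40, Havcr2 and Lgals9, found by symbol among the 49315 genes of the deposited count table, and 8 of the 9 had enough reads to be tested. The members were chosen on earlier fold changes from these same libraries, so their levels and differences are given as a description, without a p-value. The series is RNA-Seq of bone marrow-derived macrophages (BMDMs) from C57BL/6 mice, differentiated in 10 ng/ml M-CSF for 7 to 10 days. Cells were transfected with Lipofectamine and a gapmeR, a chemically modified antisense oligonucleotide that leads RNase H to the RNA it pairs with.

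One group of 4 libraries (replicates 9, 11, 13 and 15) received 25 nM of a gapmeR against MAARS, a macrophage long non-coding RNA. The other 4 (replicates 2, 5, 6 and 7) received the same dose of a negative control gapmeR. The dose is as in the labels, and the methods give the same figure as an amount in nmol rather than a concentration. Both groups were thus exposed to M-CSF, to the transfection reagent and to an oligonucleotide, and no untransfected cells were analysed here. Which MAARS gapmeR sequence these libraries received, and whether it was a single one, is not stated in the labels or the paper. The paper chose a particular gapmeR for its further studies, though some of its BMDM experiments also used a different one. The sources used here do not say whether the libraries of a group came from separate mice or cultures, so the errors and p-values measure the spread between these libraries, which may be technical.

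The proteins fall into a few roles. CD80 and CD86 on an antigen-presenting cell bind CD28, which costimulates the T cell, and CTLA-4, which restrains it, while ICOS ligand engages ICOS. PD-L1 and PD-L2 bind PD-1 and dampen T-cell activation, and VISTA, encoded by Vsir, is another inhibitory member of the B7 family. CD40 is the receptor through which T-cell CD40 ligand activates macrophages and dendritic cells, TIM-3 (Havcr2) is an inhibitory receptor found on T cells and on myeloid cells, and galectin-9 (Lgals9) is one of its ligands. Interferon gamma, acting through the JAK kinases, is a classical inducer of PD-L1 in macrophages.

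The stretches just upstream of Cd274, Vsir and Lgals9 are shown because these were the 3 most abundant members and did not differ in the same direction. Each runs from 250 to 31 bases before the start that RefSeq gives on GRCm38.p6 and is written along the gene's own strand. Capitals mark GAAA or its complement TTTC, the core that interferon regulatory factors contact.
Cd274, chr19:29367188-29367407, plus strand: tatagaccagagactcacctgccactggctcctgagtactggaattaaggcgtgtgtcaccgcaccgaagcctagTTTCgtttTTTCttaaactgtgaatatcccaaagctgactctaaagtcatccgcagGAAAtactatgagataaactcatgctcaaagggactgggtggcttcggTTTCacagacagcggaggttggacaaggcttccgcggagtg
Lgals9, chr11:78984955-78985174, minus strand: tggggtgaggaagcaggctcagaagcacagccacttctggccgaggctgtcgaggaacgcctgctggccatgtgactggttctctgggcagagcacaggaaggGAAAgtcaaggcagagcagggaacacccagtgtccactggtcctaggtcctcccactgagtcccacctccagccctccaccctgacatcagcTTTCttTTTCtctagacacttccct
Vsir, chr10:60346601-60346820, plus strand: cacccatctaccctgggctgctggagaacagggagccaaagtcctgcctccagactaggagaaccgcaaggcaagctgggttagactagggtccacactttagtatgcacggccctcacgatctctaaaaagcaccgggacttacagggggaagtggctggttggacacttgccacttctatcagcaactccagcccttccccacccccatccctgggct

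The Cd274 stretch held 4 of these cores, the Lgals9 stretch 3 and the Vsir stretch 0. Among the members whose stretch is not shown, Pdcd1lg2 had 3, Cd80 2, Havcr2 2 and Icosl 1. The number of cores thus did not follow the fold changes across members. Over the 32851 stretches of this length in the RefSeq table, 84.0% held at least 1 core and 23.4% held 4 or more. The paired motif GAAANNGAAA, in which 2 bases separate the cores, was searched on both strands and occurred once among the 7 members with a stretch. That match lay in Lgals9, starting 55 bases before the start, and 2.63% of all stretches held one. The wider pair GAAANNNGAAA (2.06% of stretches), the STAT-type palindrome TTCNNNGAA (6.27%) and the NF-kappaB-type letters GGGANNTTCC (1.04%) were in none of the 7. The GAAA core counts overlap those of the paired motifs, which contain it. The GC content was 49.1% in Cd274, 57.7% in Vsir and 58.6% in Lgals9, against a median of 51.8% over all stretches. Most of the Cd274 stretch also lies within the neighbouring gene Plgrkt (chr19:29348599-29367390, minus strand). These matches describe letters in a window and were not compared with any binding data. Cd40 and Cd86 had no entry in the table.

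The targeted RNA was checked first. MAARS (Gm14461, chr2:78237547-78302230, plus strand) had 238, 296, 240 and 249 counts in the control libraries and 163, 161, 159 and 135 in the MAARS gapmeR libraries. The groups did not overlap. Its level fell by 48.1%, from 13.1 ± 1.36 to 6.82 ± 0.845 CPM (counts scaled to the size of the library, SD, n = 4), a log2 fold change of -0.95 with a standard error of 0.11 and an adjusted p of 5.8e-05 (Benjamini-Hochberg, from edgeR's quasi-likelihood fit). The paper reports a stronger knockdown of MAARS in BMDMs by its gapmeRs, and the reason for this difference was not tested. Library totals were 19287279 to 20567123 counts in the control group and 20839671 to 24541205 in the MAARS gapmeR group, so that every MAARS gapmeR library was deeper than every control library, and the part of depth in the results was not tested. All CPM values below were scaled with TMM factors, which lay between 0.955 and 1.03. Fold changes compare MAARS gapmeR with control gapmeR, so that a negative log2 value means less RNA after knockdown.

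In these macrophages, most members were lower after MAARS knockdown. Of the 8 members tested, 6 were called lower at an adjusted p under 0.05 by edgeR, 1 was called higher and 1 was not called. Over all 13051 genes tested, 24.0% were called lower and 21.3% higher. As the members had been selected from this contrast, nothing is read from the comparison of their count with those shares. The CPM ranges of the groups did not overlap for the 8 members tested, with 7 lower and 1 higher. Across all genes tested, 22.8% were lower and 19.3% higher without overlap. The median log2 fold change of the 8 members was -0.89, and that of all genes tested was 0.008. These are bulk libraries, in which fewer cells of a type and less RNA per cell cannot be told apart.

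Cd274, encoding PD-L1, was lower in every MAARS gapmeR library than in every control library. Cd274 (ENSMUSG00000016496, chr19:29367455-29388095, plus strand, 7 exons) was measured at 328, 339, 436 and 426 CPM in control replicates 2, 5, 6 and 7. In MAARS gapmeR replicates 9, 11, 13 and 15 it stood at 90.6, 102, 111 and 113 CPM. Within the control group, replicates 6 and 7 lay above replicates 2 and 5. The mean went from 382 ± 56.7 to 104 ± 10.2 CPM (SD, n = 4), or 27.3% of control, a log2 fold change of -1.88 with a standard error of 0.10. Ranked over all genes tested, this was the 146th lowest fold change. In the GENCODE M21 annotation, 14.1% of the exonic bases of Cd274 are shared with a gene on the opposite strand, AC119228.1, which was not among the counted genes, and the strand setting of the counting is not given in the sources used here. No other member shares exonic bases with an annotated gene.

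PD-L2 was barely detected. Pdcd1lg2 (chr19:29410919-29471161, plus strand, 6 exons) begins 43.5 kb from the start of Cd274, on the same strand, but had only 3, 1, 3 and 3 counts in the control libraries and 1, 2, 4 and 0 in the MAARS gapmeR libraries. Its sums were 10 counts (95% exact Poisson interval 4.80 to 18.4, counting error only) of 79813618 in the control group and 7 (2.81 to 14.4) of 89175784 in the MAARS gapmeR group. The intervals overlapped, and a difference in PD-L2 was not detectable at this depth.

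Vsir was the only member called higher after knockdown. VISTA, its product, is carried by myeloid cells and inhibits T cells. The gene (chr10:60346851-60372684, plus strand, 8 exons) was measured at 311, 394, 384 and 329 CPM in the control libraries and at 605, 483, 532 and 528 CPM in the MAARS gapmeR libraries. All 4 knockdown libraries were above all 4 controls, and replicate 9, which was the lowest knockdown library for Cd274, was the highest for Vsir. The mean went from 354 ± 40.5 to 537 ± 50.4 CPM (SD, n = 4), a log2 fold change of 0.60 with a standard error of 0.09, the 1176th highest of the genes tested. Cd274 and Vsir, which both encode inhibitory proteins of the B7 family, thus differed in opposite directions. Lgals9, encoding a ligand of the inhibitory receptor TIM-3, was called lower, as was Cd274.

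The CD28-binding ligands CD80 and CD86 differed in size of change. Cd86 (chr16:36603869-36666081, minus strand, 10 exons) was measured at 31.2, 40.7, 49.7 and 41.5 CPM in the control libraries and at 22.1, 20.1, 24.2 and 25.7 CPM after knockdown. The groups did not overlap, although control replicate 2 stood apart from the other controls toward the knockdown group. The mean went from 40.8 ± 7.54 to 23.1 ± 2.44 CPM (SD, n = 4), a log2 fold change of -0.82 with a standard error of 0.12.

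Cd80, 1.79 Mb away on the same chromosome (chr16:38455561-38496335, plus strand, 7 exons), was measured at 19.9, 18.3, 17.5 and 17.1 CPM in the control libraries. After knockdown it was at 15.7, 14.6, 16.4 and 17.1 CPM. The groups touched without overlapping, since the lowest control (17.09) and the highest knockdown library (17.08) were almost equal. The mean of 18.2 ± 1.22 against 15.9 ± 1.06 CPM (SD, n = 4) gave a log2 fold change of -0.19 with a standard error of 0.08, and Cd80 was the member not called. It was called when MAARS gapmeR replicate 15 was left out, at a log2 fold change of -0.23.

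Icosl, encoding the ligand of the costimulatory receptor ICOS (chr10:78069302-78083913, plus strand, 7 exons), was a low member. Its control levels were 9.88, 9.73, 13.9 and 15.3 CPM and its knockdown levels 4.64, 8.16, 6.20 and 6.02 CPM. The groups did not overlap, and the controls again split into replicates 2 and 5 below and 6 and 7 above. The mean went from 12.2 ± 2.81 to 6.26 ± 1.45 CPM (SD, n = 4), a log2 fold change of -0.95 with a standard error of 0.19.

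The receptor CD40, which on macrophages receives help from activated T cells, was the member nearest to Cd274 in size of change. Cd40 (chr2:165055627-165072948, plus strand, 9 exons) was at 11.1, 11.4, 17.3 and 12.0 CPM in the control libraries and at 3.64, 4.74, 4.32 and 2.51 CPM after knockdown. No knockdown library came near the controls, of which replicate 6 was far above the other 3. The mean went from 12.9 ± 2.90 to 3.80 ± 0.970 CPM (SD, n = 4), or 29.4% of control, a log2 fold change of -1.76 with a standard error of 0.20.

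TIM-3 and galectin-9, a receptor and its ligand, were both lower. Havcr2 (chr11:46454935-46481255, plus strand, 7 exons) was at 109.5, 97.6, 93.9 and 90.7 CPM in the control libraries and at 68.7, 76.8, 68.8 and 76.5 CPM after knockdown. The groups were clear of each other, with a mean of 97.9 ± 8.22 against 72.7 ± 4.59 CPM (SD, n = 4) and a log2 fold change of -0.43 with a standard error of 0.07. Here control replicate 2, the lowest control library for 5 of the 8 members tested, was the highest.

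Lgals9 (chr11:78962974-78984946, minus strand, 11 exons) was the most abundant member in the control libraries, at 517, 544, 617 and 592 CPM. After knockdown it was at 184, 240, 266 and 218 CPM. The highest knockdown library lay below every control. The mean went from 568 ± 45.7 to 227 ± 34.5 CPM (SD, n = 4), a log2 fold change of -1.32 with a standard error of 0.10, the 277th lowest of the genes tested.

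**Figure D1:**
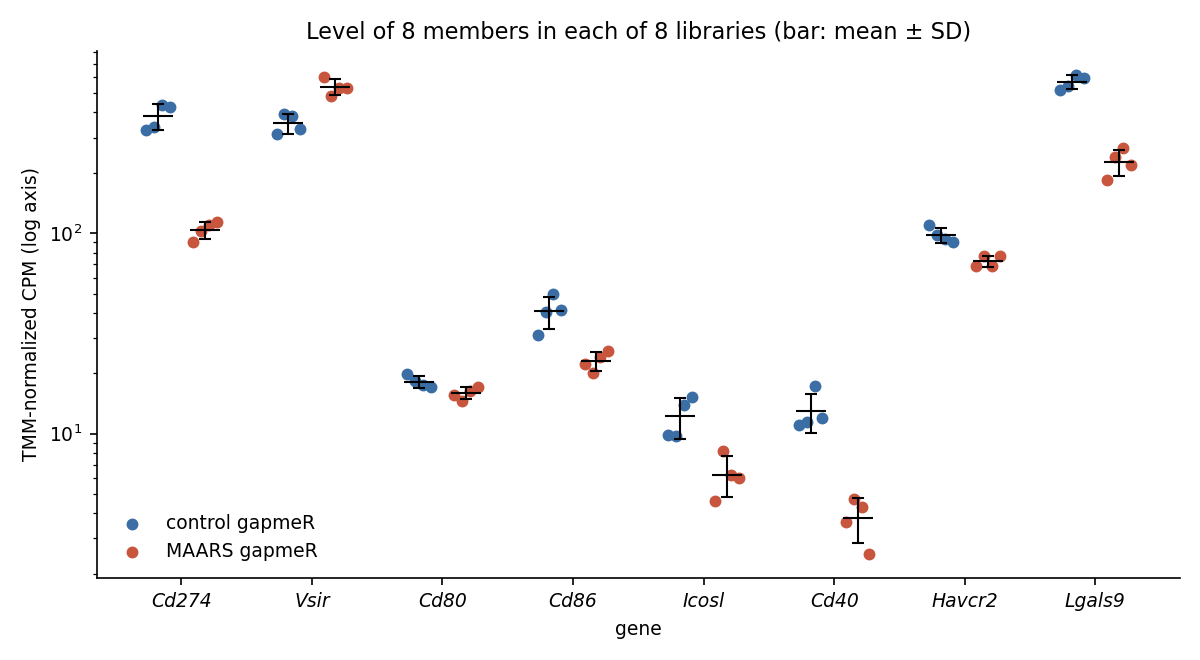
TMM-normalized CPM on a log axis for the 8 members tested, with each library as a point and the mean ± SD as bars (n = 4 in each group, control gapmeR in blue and MAARS gapmeR in red). Every pair of groups is apart, from Cd80, whose nearest libraries are at 17.09 and 17.08 CPM, to Cd274, whose control libraries start at 328 CPM and whose knockdown libraries end at 113 CPM.

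The libraries of a group did not keep 1 order across members. In the control group, replicate 2 was the lowest library for 5 of the 8 members and replicate 6 the highest for 4. In the MAARS gapmeR group, replicate 9 was the lowest for 4 and replicate 11 for 3. The coefficient of variation in the control group ran from 6.72% for Cd80 to 23.0% for Icosl, and in the knockdown group from 6.31% for Havcr2 to 25.5% for Cd40. The scatter was thus wider for Icosl and Cd40 than for Havcr2. It did not follow level alone, since Cd80, also a low member, had 6.72% in the control group and 6.66% after knockdown.

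To set the members side by side, counts were divided by the merged exon length of each gene and scaled to TPM, a scale on which all genes of a library have the same sum. In the control libraries the order from high to low was Lgals9 (848 ± 65.9 TPM), Cd274 (337 ± 50.4), Vsir (225 ± 19.5), Havcr2 (115 ± 11.4), Cd86 (35.5 ± 6.03), Cd80 (15.7 ± 1.28), Cd40 (12.1 ± 2.56), Icosl (8.43 ± 2.01) and Pdcd1lg2 (0.211 ± 0.0869), each with its SD over 4 libraries. The ranges of neighbours in this order overlapped for Cd80 and Cd40 and for Cd40 and Icosl, and for no other neighbouring pair. After knockdown the order was Vsir (362 ± 32.0 TPM), Lgals9 (359 ± 54.5), Cd274 (97.2 ± 9.55), Havcr2 (90.4 ± 6.31), Cd86 (21.3 ± 2.18), Cd80 (14.5 ± 0.916), Icosl (4.58 ± 1.09), Cd40 (3.78 ± 0.973) and Pdcd1lg2 (0.134 ± 0.134). Vsir and Lgals9, Cd274 and Havcr2, and Icosl and Cd40 were neighbours with overlapping ranges. Vsir thus moved from below Cd274 to the level of Lgals9, and Cd274 came down to the level of Havcr2. With the length of the longest transcript in place of merged exons, Icosl stood above Cd40 in the control group and Lgals9 above Vsir in the knockdown group.

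**Figure D2:**
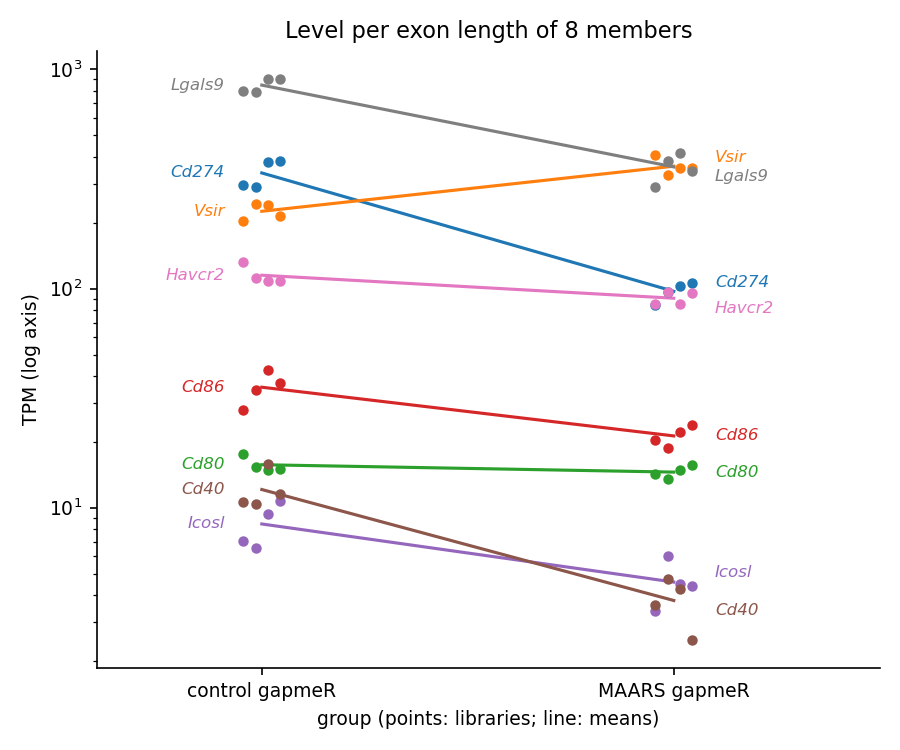
TPM on a log axis for 8 members in the control gapmeR and MAARS gapmeR libraries, with each library as a point and lines joining the group means. The Vsir line climbs from 225 to 362 TPM and crosses that of Cd274, which drops from 337 to 97.2 TPM, while the line of Cd80 stays between 15.7 and 14.5 TPM.

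Ratios taken within each library gave the balance between members. The ratio of Cd274 to Cd80 was 16.9, 18.9, 25.5 and 25.5 in the control libraries and 5.92, 7.15, 6.88 and 6.79 after knockdown. In every library PD-L1 RNA exceeded CD80 RNA per length, and the mean ratio was 21.7 ± 4.45 in the control group and 6.68 ± 0.532 in the knockdown group (SD, n = 4). The ratio of Cd86 to Cd80 was 1.59, 2.24, 2.87 and 2.46 in the control libraries and 1.43, 1.40, 1.49 and 1.53 after knockdown. Control replicate 2, with the lowest Cd86 and the highest Cd80 of its group, came close to the knockdown libraries in this ratio. The ratio of Cd274 to Vsir was above 1 in every control library (1.19 to 1.79) and below 0.3 in every knockdown library (0.208 to 0.297). The ratio of Lgals9 to Havcr2 had a mean of 7.45 ± 1.13 in the control group and 3.98 ± 0.664 in the knockdown group (SD, n = 4). A ratio of Cd274 to Pdcd1lg2 was not formed, since Pdcd1lg2 had 0 counts in 1 library and at most 4 in the others.

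Relatives of the members were read from 8 lists of genes. They were written with earlier results of these libraries known and are not independent evidence of a direction. Genes of these lists are named where they were among the 3 with the smallest p-value of their list, and all adjusted p-values come from the same edgeR fit, corrected by Benjamini-Hochberg for all 13051 genes. The count for each list stands against the 24.0% called lower, the 21.3% called higher and the median log2 fold change of 0.008 of all genes tested. For lists in which edgeR called 0 genes higher, 0 had a positive fold change at an unadjusted p under 0.05, apart from Nectin1 among the T-cell contact ligands and Ifngr1 in the interferon-gamma route, and DESeq2 and limma-voom also called 0.

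Other B7 and butyrophilin ligands were almost silent. Of 8 genes, only Cd276 (B7-H3) was tested, at 6.00 ± 0.761 against 7.12 ± 0.580 CPM (log2 fold change 0.24, adjusted p = 0.11), and it was not called. The other 7, including Vtcn1 and Btn2a2, had at most 12 counts in any library. In a list of 8 genes, made of costimulatory ligands of the TNF superfamily and the receptor gene Tnfrsf14, 5 were tested, 3 fell and 0 rose, and the median log2 fold change was -1.40. Tnfsf8, encoding CD30 ligand, fell from 2.73 ± 0.669 to 0.726 ± 0.226 CPM (log2 fold change -1.90, adjusted p = 0.00026). Tnfsf14, encoding LIGHT, fell from 1.61 ± 0.306 to 0.614 ± 0.254 CPM (-1.40, adjusted p = 0.0027), and Tnfsf15, encoding TL1A, from 1.20 ± 0.433 to 0.281 ± 0.118 CPM (-2.09, adjusted p = 0.000943). All 3 were low, with at most 68 counts in a library.

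Among 10 other genes whose products meet T cells, all were tested, 5 fell, 0 rose and the median log2 fold change was -0.33. Fgl2, whose product has a soluble form that restrains T cells, fell from 210 ± 92.0 to 25.8 ± 5.53 CPM (log2 fold change -3.03, adjusted p = 1.57e-05). Its control libraries were at 108, 162, 312 and 258 CPM, replicates 6 and 7 again above 2 and 5. Icam1, an adhesion ligand for the T-cell integrin LFA-1, fell from 100 ± 16.2 to 49.4 ± 3.01 CPM (-1.02, adjusted p = 1.64e-05), and 11.7% of its exonic bases lie opposite another annotated gene. Cd47, the "do not eat me" ligand of SIRP-alpha, fell from 401 ± 43.5 to 265 ± 13.9 CPM (-0.60, adjusted p = 7.15e-05). That is a measure of RNA. For CD47 protein, assessed by FACS or Western blot in MAARS-silenced BMDMs, the paper reports no significant regulation.

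The relatives of TIM-3 and galectin-9 were mixed. Of 12 genes, 7 were tested, of which 3 fell and 3 rose, with a median log2 fold change of 0.07. Lgals8, another galectin with paired carbohydrate-binding domains, fell from 336 ± 14.2 to 239 ± 5.08 CPM (log2 fold change -0.49, adjusted p = 1.07e-05). Ceacam1, which encodes a partner of TIM-3, fell from 25.6 ± 2.14 to 17.3 ± 1.96 CPM (-0.56, adjusted p = 0.000515). Hmgb1, encoding a nuclear protein that TIM-3 can also bind, rose from 170 ± 9.49 to 235 ± 2.13 CPM (0.47, adjusted p = 1.83e-05).

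Genes of the interferon-gamma route to PD-L1 were mostly lower. Of 11 genes, all tested, 9 fell, 0 rose and 2 were not called, and the median log2 fold change was -0.42. Over the alternatives for processing, the number called lower ranged from 8 to 10. Stat2 fell from 405 ± 50.9 to 142 ± 30.6 CPM (log2 fold change -1.52, adjusted p = 1.12e-05). Irf9, whose product works with STAT2, fell from 122 ± 6.00 to 74.7 ± 13.3 CPM (-0.71, adjusted p = 0.00024). Stat2 and Irf9 are known mainly for the response to type I interferon rather than for the interferon-gamma route that gives the list its name.

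For proteins that handle PD-L1 after it is made, 8 genes were tested, of which 1 fell and 3 rose, with a median log2 fold change of -0.09. Cmtm4, whose product shields PD-L1 from degradation, rose from 39.3 ± 3.65 to 53.4 ± 2.09 CPM (log2 fold change 0.44, adjusted p = 0.00031). Cops5, encoding a deubiquitinase that stabilises PD-L1, fell from 93.4 ± 3.28 to 76.8 ± 3.01 CPM (-0.28, adjusted p = 0.000546). Stub1, encoding an E3 ubiquitin ligase, rose from 37.6 ± 2.59 to 43.1 ± 1.93 CPM (0.20, adjusted p = 0.0187), but 42.3% of its exonic bases lie opposite Jmjd8, and it was no longer called when control replicate 5 or 7 or MAARS gapmeR replicate 11 was left out. Without control replicate 7, the number called higher was 1, and without control replicate 2, the number called lower was 2.

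Of 11 genes of CD40 signalling, 8 fell and 0 rose, with a median log2 fold change of -0.31. Birc2, encoding cIAP1, fell from 35.1 ± 2.40 to 25.8 ± 0.639 CPM (log2 fold change -0.45, adjusted p = 0.000147). Relb, a subunit of the alternative NF-kappaB pathway, fell from 35.6 ± 5.02 to 21.1 ± 2.07 CPM (-0.76, adjusted p = 0.000176). Traf3, an adaptor that restrains that pathway, fell from 35.0 ± 2.52 to 27.1 ± 1.02 CPM (-0.37, adjusted p = 0.000673). These changes were smaller than the difference of Cd40 itself.

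The receptors that these ligands bind on T cells were mostly absent from the libraries. Of 9 genes, 7 had at most 15 counts in any library, among them Ctla4 with 0 counts throughout and Pdcd1, encoding PD-1, with 1 count in 1 library. Cd28, the receptor of CD80 and CD86, was an exception, at 248 ± 33.8 CPM in the control group and 272 ± 21.8 CPM after knockdown (log2 fold change 0.13, adjusted p = 0.255), and was not called. Lag3 fell from 1.07 ± 0.358 to 0.384 ± 0.209 CPM (-1.47, adjusted p = 0.0087), on at most 31 counts in a library.

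**Figure D3:**
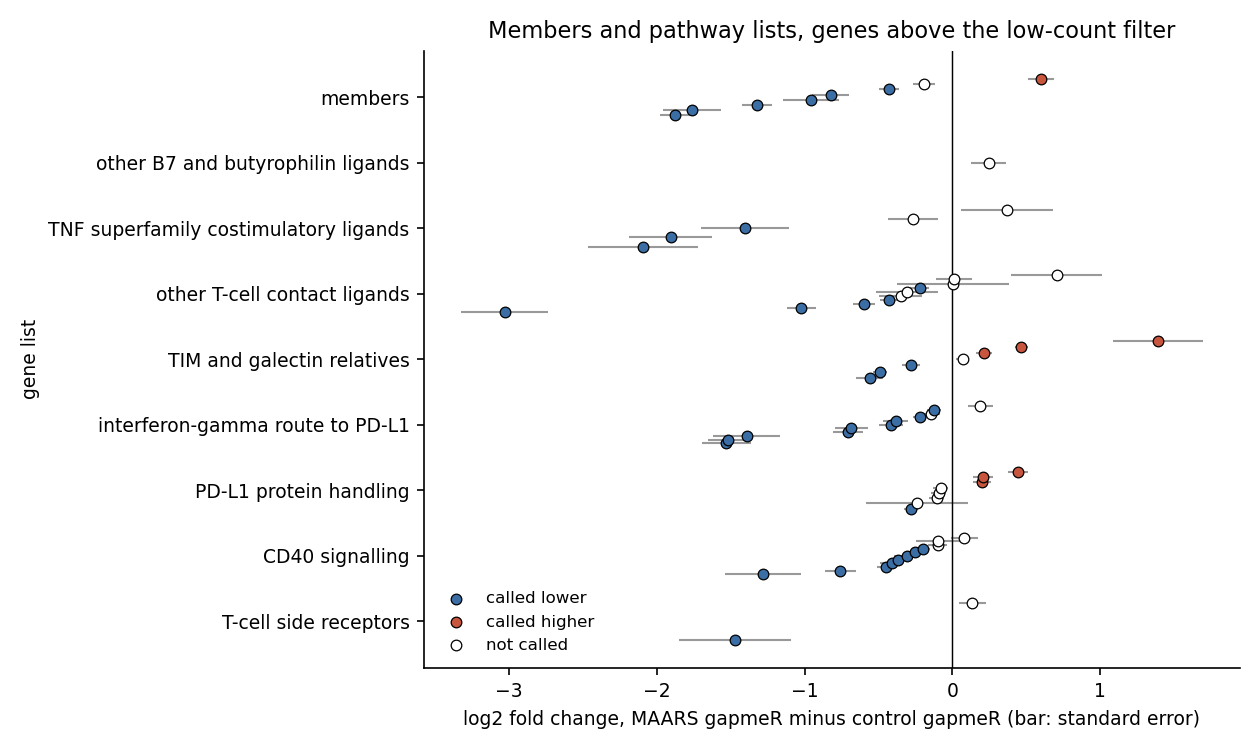
Log2 fold change of MAARS gapmeR against control gapmeR with its standard error, for the 8 members tested and for the tested genes of 8 lists, with called genes filled (blue lower, red higher) and others open. Members run from -1.88 (Cd274) to 0.60 (Vsir). The CD40 signalling and interferon-gamma lists lie mostly left of 0, and the lists of TIM and galectin relatives and of PD-L1 handling lie on both sides.

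The genes around Cd274 did not share the size of its difference. Within 500 kb of its start lie the starts of 21 of the counted genes, Cd274 included, and 14 besides Cd274 were tested. Of these, 2 fell, 4 rose and 8 were not called, with a median log2 fold change of 0.01. Over all genes tested, 24.0% were called lower and 21.3% higher, so calls of this number are no trait of the region. Plgrkt, which starts 65 bases from the start of Cd274 and runs the opposite way, was at 55.5 ± 2.82 CPM in the control group and 58.8 ± 4.81 CPM after knockdown (log2 fold change 0.08, adjusted p = 0.316). Insl6, which starts 42.1 kb upstream, fell from 10.3 ± 1.27 to 6.24 ± 0.245 CPM (-0.72, adjusted p = 0.000249). Jak2, the kinase of the interferon-gamma receptor, starts 116 kb upstream and fell from 85.6 ± 11.4 to 64.1 ± 2.55 CPM (-0.42, adjusted p = 0.00189).

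The 4 neighbours that rose were Plpp6 (log2 fold change 0.47, adjusted p = 0.000165), Ak3 (0.43, adjusted p = 0.000192), Ric1 (0.21, adjusted p = 0.0148) and Ermp1 (0.18, adjusted p = 0.0333). Ermp1 was not called when any 1 of 5 libraries was left out (control replicates 2, 5 and 7 and MAARS gapmeR replicates 11 and 13). A930007I19Rik, antisense to the start of Ric1, differed by -0.65 on the log2 scale (adjusted p = 0.0608) and was called without control replicate 2 (-0.83, adjusted p = 0.014) and with no filter on low counts (-0.66, adjusted p = 0.0361). The other 6 neighbours not called, 4430402I18Rik, Cdc37l1, 1700018L02Rik, Rcl1, 9930021J03Rik and Ranbp6, had adjusted p-values of 0.132 to 0.927. If strand was not used in counting, exons that overlap on opposite strands may share reads. Such overlap takes in 7.07% of the exonic bases of Plpp6 (with 4430402I18Rik) and 22.9% of those of Ak3 (with 1700018L02Rik and Cdc37l1).

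**Figure D4:**
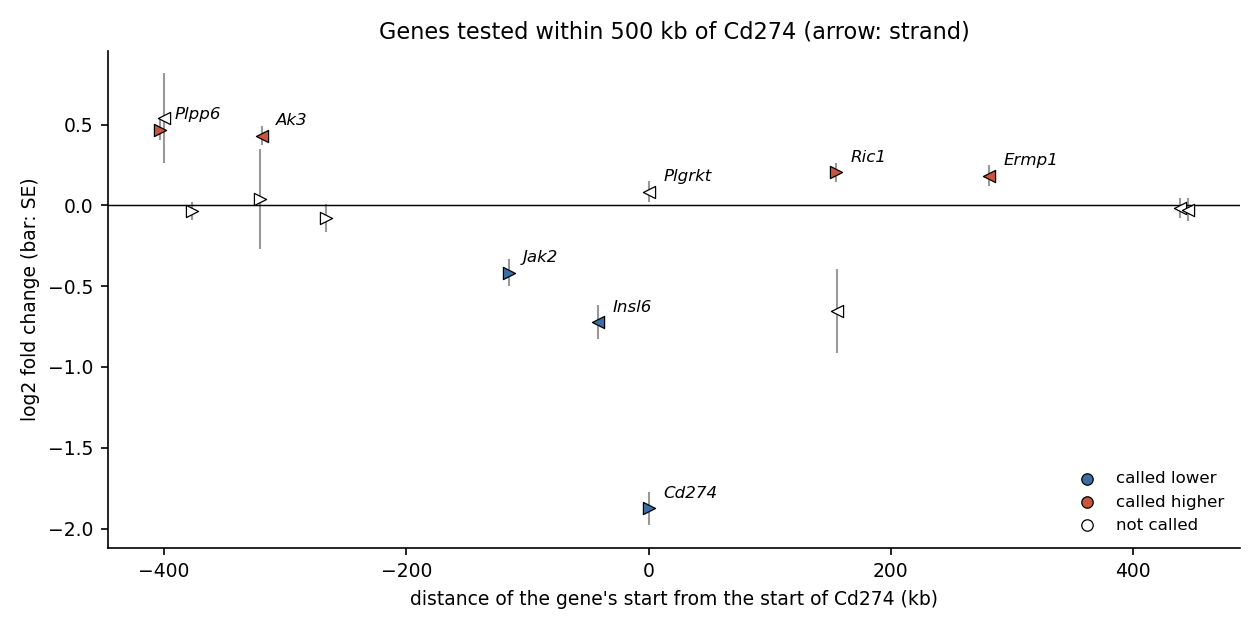
Log2 fold change with its standard error for Cd274 and the 14 other tested genes within 500 kb, against the distance of each gene's start from that of Cd274 in kb, with arrows for strand and filled arrows for called genes (blue lower, red higher). Cd274 stands alone at -1.88, with Plgrkt at the same place near 0.08 and Insl6 and Jak2 lower upstream of it.

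The genes whose profile was nearest to that of Cd274 were found by the root mean square difference of log2 CPM, each gene centred on its mean over the 8 libraries. Gpr35 (0.11 log2 units), Cd300lf (0.127), Oas1b (0.132), Tor3a (0.133) and H2-T23 (0.139) came first among 13050 genes. Gpr35 encodes a G protein-coupled receptor, Cd300lf an inhibitory myeloid receptor, Oas1b a member of the interferon-induced oligoadenylate synthetase family, and H2-T23 the non-classical MHC molecule Qa-1. Their mean levels were 34.6, 122, 15.2, 317 and 807 CPM in the control group and 8.96, 36.4, 4.28, 85.9 and 230 CPM after knockdown, in that order. This measure used the contrast itself, so no test was made. Among the members, Lgals9 was in place 89 and Cd40 in place 107, followed by Icosl (330), Cd86 (403), Havcr2 (1391), Cd80 (3344) and Vsir (11732).

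**Figure D5:**
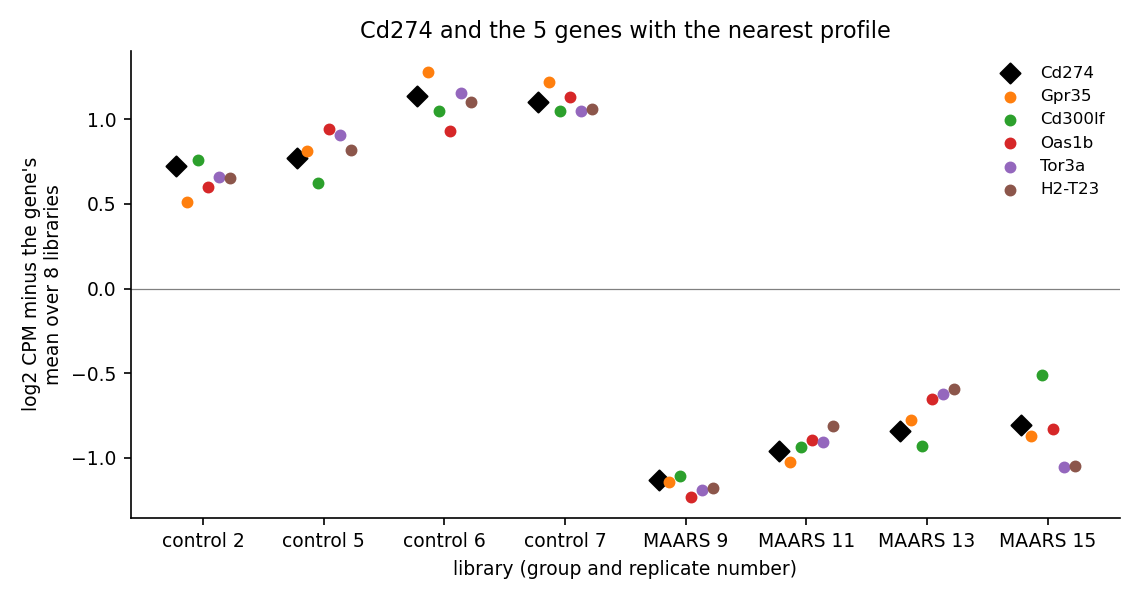
Log2 CPM minus each gene's mean over the 8 libraries, by library, for Cd274 (black diamonds) and the 5 genes with the nearest profile. All 6 genes are above 0.5 in every control library and below -0.5 in every MAARS gapmeR library.

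The labelled cell type was checked by its markers, and other cell types by theirs. All 8 macrophage markers were tested and none was near 0, with sums of 14062 to 17287 CPM in the control libraries and 17055 to 20216 CPM after knockdown. They did not move as one, since 3 fell, including Fcgr1 (log2 fold change -2.09, adjusted p = 7.12e-06), 4 rose, including Csf1r (0.45, adjusted p = 0.000784), and Adgre1, encoding F4/80, was not called (0.04, adjusted p = 0.553). The marker counts here and below stand against the 24.0% called lower and 21.3% called higher over all genes tested. Of 8 T-cell markers, 6 (Cd3d, Cd3e, Cd3g, Cd8a, Cd2 and Cd247) had at most 3 counts in every library. The sum of that list was 66.2 to 85.6 CPM in the control group and 40.9 to 51.5 CPM after knockdown, and nearly all of it was Cd4, which fell (-0.68, adjusted p = 0.000126). The 9 markers of dendritic cells, which also carry CD80, CD86 and CD40, summed to 3.23 to 4.69 CPM in the control libraries and 3.25 to 3.68 CPM after knockdown, with Flt3 at 3 counts or fewer. Of this list, Xcr1 was too low to be tested. It had 9, 12, 17 and 15 counts in the control libraries and 5, 4, 7 and 2 after knockdown, without overlap in CPM. All other markers of the list overlapped between the groups. The 6 B-cell markers summed to 1.89 to 5.11 and 2.65 to 4.12 CPM, the 8 neutrophil markers to 101 to 299 and 105 to 168 CPM, and the 6 fibroblast markers to 458 to 1045 and 718 to 1233 CPM, and edgeR called 0 of the 16 tested genes of these 4 lists. Pdgfrb, of the fibroblast list, had an unadjusted p under 0.05 toward higher and was called by DESeq2 and not by limma-voom. The part of other cells in the members' levels was not tested.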

How the data were processed

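RNA-Seq of BMDMs transfected with a MAARS gapmeR (4 libraries) or a control gapmeR (4 libraries) was used, from ribosomal RNA-depleted RNA sequenced on a HiSeq2500 as paired reads of 100 nucleotides. The submitters' processing notes name Trimmomatic 0.36, STAR 2.5.2b, Subread 1.5.2 and featureCounts, and the study's methods name mm10 with Ensembl release 79. The strand setting and the treatment of reads with several mapping places are not given in the sources used here. The deposited values are raw counts per gene, not normalized by the authors. Groups and replicate numbers came from the labels, and all 8 columns were used.

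Counts were analysed in R 4.3.3 with edgeR 4.0.16: filterByExpr (minimum count 10, minimum total 15), TMM factors, glmQLFit and glmQLFTest, with Benjamini-Hochberg adjustment over the 13051 genes kept of 49315. Genes were called at an adjusted p under 0.05. The common biological coefficient of variation was 8.51%. Within a group, the chi-square between libraries was 4.02 to 14.1 per gene, so no library was a copy of another. Symbols, exons and positions came from GENCODE M21 on GRCm38, which held 99.47% of the counted genes. TPM used merged exon lengths. Upstream sequence came from RefSeq. The fits were run on simulated counts drawn with a common dispersion for all genes. This is simpler than the real libraries, so it checks the code and not the error rates in these data.

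The members and lists were chosen with earlier results of these data known. Named genes were the 9 members, Gm14461, the 3 tested genes of each list with the smallest p, every tested gene within 500 kb of Cd274 and the 5 genes nearest to it in profile, and a few cell markers were named beside their lists. Of the genes under this rule, 1 is not reported here. The alternatives were RLE or upper-quartile factors, DESeq2 1.42.0, limma-voom (limma 3.58.1), no filter, a mean count of at least 10, each library left out in turn, a threshold of 0.01, and the longest transcript for TPM. The ratios of Cd274 to Vsir and of Lgals9 to Havcr2, and the alternatives for ratios and for counts of neighbours, were added after seeing the data.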

Additional observations from a re-analysis of the deposited data

Results flagged for a closer look

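Among 98 groups of 4 libraries examined, 4 held a library far from the other 3 by Dixon's criterion, where chance gives about 1 in 20. Cd40 in control replicate 6 was at 17.3 CPM, with the others at 11.1 to 12.0 CPM. Tnfsf8 in MAARS gapmeR replicate 15 was at 0.390 CPM, with the others at 0.804 to 0.873 CPM. Cdc37l1 in MAARS gapmeR replicate 13 was at 24.9 CPM, with the others at 23.0 to 23.1 CPM. Ric1 in MAARS gapmeR replicate 9 was at 69.2 CPM, with the others at 60.2 to 60.8 CPM. These were 4 different libraries.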

How the results depend on the processing

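For the 8 members tested, 112 fold changes under 14 alternatives kept their direction, and 111 kept their side of the threshold, the exception being Cd80 without MAARS gapmeR replicate 15. Cd274 ranged from -1.94 to -1.81, Lgals9 from -1.41 to -1.24, Cd40 from -1.89 to -1.60 and Vsir from 0.53 to 0.66. Of 686 values for 49 named genes, 663 kept direction and call. At an adjusted p under 0.01, 1740 genes were called higher (2782 at 0.05), among them 2 neighbours of Cd274 and 1 gene of PD-L1 handling. Over the libraries left out, the number called ranged from 0 to 1 (higher) for other T-cell contact ligands (1 without control replicate 7) and for the interferon-gamma route (1 without MAARS gapmeR replicate 11), and from 1 to 2 (lower) and 1 to 3 (higher) for PD-L1 handling. The interferon-gamma route had 1 called higher with upper-quartile factors and 1 with no filter. Neighbours that were not called changed sign: Cdc37l1 (0.0273), 9930021J03Rik (0.0467) and Ranbp6 (0.0352) with upper-quartile factors, and, over the libraries left out, 1700018L02Rik (-0.0740 to 0.330), 9930021J03Rik (-0.0492 to 0.0201) and Ranbp6 (-0.0656 to 0.00324). The cause of these changes was not tested. With the longest transcript as length, mean TPM in control and knockdown was 260 and 74.7 for Cd274, 180 and 288 for Vsir, 14.2 and 13.1 for Cd80, 10.7 and 5.78 for Icosl, and 88.9 and 69.5 for Havcr2, with Cd86 at 23.6 after knockdown. By the same lengths the ratio of Cd86 to Cd80 was 2.83 and 1.80, that of Lgals9 to Havcr2 10.0 and 5.37, and that of Cd274 to Cd80 5.73 after knockdown. No paired analysis was possible because the 2 groups share no replicate number. Depth limits Pdcd1lg2, for which no difference was detectable.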

Other observations

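RNA of some genes usually named for T cells was present without the CD3 chains. Cd28 had 4216 to 6577 counts and Cd4 1018 to 1581 counts in every library, while Cd3d, Cd3e, Cd3g and Cd8a had at most 3 counts in each.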
